A study of Mus musculus with 10 samples.

Results

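Ndufa4 and the nuclear-encoded subunits of cytochrome c oxidase (complex IV) were examined in whole brain of mice that overexpress Glo1, the gene of glyoxalase 1. The list held 10 genes: Ndufa4, Cox4i1, Cox5a, Cox5b, Cox6a1, Cox6b1, Cox6c, Cox7a2, Cox7b and Cox7c. A gene was taken where the platform annotation assigned a probe set to it alone, and its brightest probe set over all arrays stood for it. By this rule 9 of the 10 genes were measured, of 19938 genes with a probe set of their own on the array. Cox7c was the exception, because each of its probe sets is also assigned to the pseudogene Gm12338. Ndufa4 was chosen by its lower value in Tg than in WT brain on these same arrays. Its own difference is therefore a description, and its limma call is no independent support. The other 8 measured genes were named as subunits of the same complex, and their differences were tested.

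The transgenic group (Tg) comprised 5 adult male mice carrying Glo1 on a bacterial artificial chromosome, and the wild-type group (WT) comprised 5 adult male littermates. Both were on a C57Bl/6J background, group housed, naive and untreated. The labels do not give the number of founder lines or the borders of the transgene. RNA of each whole brain was hybridised to 1 single-colour Affymetrix gene array, and all values below are log2 expression values as deposited.

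Cytochrome c oxidase is the last enzyme of the respiratory chain. It passes electrons from cytochrome c to oxygen and pumps protons across the inner mitochondrial membrane. Its catalytic core is encoded by mitochondrial DNA, while a ring of small nuclear-encoded subunits stabilises the core and adjusts its activity. Ndufa4 was first assigned to complex I, and was later placed in complex IV from work on mammalian mitochondria. Neurons depend heavily on this chain for ATP, and several nuclear subunits exist as isoforms that differ between tissues.

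The nuclear genes of oxidative phosphorylation are known as targets of the factor NRF1 and of ETS-family factors such as GABP. RefSeq promoter windows (build GRCm38.p6) were held for 8 of the 10 listed genes, all but Cox4i1 and Cox6c. Each window runs from 250 bases before to 50 bases after the annotated start. They were searched on both strands for the NRF1 motif, which is GCGCA and GCGC with any 1 base between them, and for the ETS core CCGGAAG. The NRF1 motif was found in 1 of the 8, Cox6a1, and in 4.6% of all 32851 mouse windows. The ETS core was found in 2 of the 8, Cox6a1 and Cox6b1, and in 8.86% of all windows. The last 170 bases before the start are shown for Ndufa4, whose transcript differed, and for the windows that held a motif, with matches in capitals.
Ndufa4, chr6:11907451-11907620, minus strand: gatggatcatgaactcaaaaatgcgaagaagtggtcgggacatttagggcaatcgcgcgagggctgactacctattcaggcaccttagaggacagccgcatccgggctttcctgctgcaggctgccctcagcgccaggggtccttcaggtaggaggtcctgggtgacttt
Cox6a1, chr5:115348959-115349128, minus strand: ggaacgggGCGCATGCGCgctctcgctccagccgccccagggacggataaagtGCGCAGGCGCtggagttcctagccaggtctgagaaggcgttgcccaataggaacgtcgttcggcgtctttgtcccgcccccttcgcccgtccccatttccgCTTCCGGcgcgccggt
Cox6b1, chr7:30626115-30626284, minus strand: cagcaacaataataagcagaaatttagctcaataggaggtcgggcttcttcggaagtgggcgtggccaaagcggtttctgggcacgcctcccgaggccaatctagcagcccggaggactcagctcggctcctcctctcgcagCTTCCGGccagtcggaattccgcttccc
The NRF1 matches of Cox6a1 began 162 and 117 bases before the start, its ETS match 16 bases before it and that of Cox6b1 28 bases before it. The G and C share of the 170 bases was 57.1% for Ndufa4, 67.6% for Cox6a1 and 58.8% for Cox6b1. Further motifs were searched in the same windows. The YY1 motif AAGATGGC was found in 0 of the 8 windows and in 2.75% of all, the Sp1 box GGGCGG in 3 (Cox5a, Cox6a1 and Cox7a2) and in 35.7% of all, and the TATA box TATAAA in 0 and in 13.6% of all. The Ndufa4 window held none of the 5 motifs. These matches are descriptions of letters and show no binding.

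The arrays were alike in overall level, with medians between 7.95 and 8.05 over the 28944 probe sets tested. Markers of neurons (8 of 8 measured), astrocytes (7 of 7), oligodendrocytes (5 of 5) and endothelium (5 of 5) lay above the median of every array. That also held for 5 of 6 microglial markers. A pair of arrays stood apart, 1 in each genotype. The mean of 6 pituitary markers was 9.54 in Tg replicate 2 and 9.92 in WT replicate 2, against 6.57 to 6.88 on the other 8 arrays. Gh, growth hormone, read 13.14 and 13.46 on these arrays, against 7.47 to 8.25 on the others. The mean over 10 cerebellar markers was 10.94 to 11.05 in the 5 Tg brains, against 8.69 in WT replicate 2 and 11.12 to 11.23 in the other 4 WT brains. Over all arrays the groups overlapped, all 10 markers had a higher mean in Tg, and 0 passed the limma adjusted threshold. Outside WT replicate 2, left out after its value was seen, the list mean was lower in every Tg brain. Singly, Cbln3, Pcp2, Calb1, Zic2 and Grm4 still overlapped without that array. The mean over 7 olfactory bulb markers was 8.10 to 8.75 in Tg and 7.99 to 8.31 in WT, and the groups overlapped. All 7 had a higher mean in Tg, of which 0 passed the limma adjusted threshold. The lowest p of the 7 was that of Eomes, with a difference of 0.56 (95% interval 0.10 to 1.02; limma unadjusted p = 0.0219, adjusted p = 0.9998). Of the 5 endothelial markers, 4 had a higher and 1 a lower mean in Tg, and 0 passed. Their lowest p was that of Cldn5, with a difference of 0.15 (0.04 to 0.27; limma unadjusted p = 0.0131, adjusted p = 0.9998). In WT replicate 2 the mean over 2 red cell markers, Alas2 and Slc4a1, was 8.99, against 7.66 to 7.92. In whole tissue, fewer cells of a type and less RNA per cell cannot be told apart. Glo1 was higher on every Tg array than on any WT array. It read 12.17, 11.88, 12.23, 12.06 and 12.06 in Tg brains, against 10.55, 10.27, 10.75, 10.55 and 10.73 in WT brains. The Glo1 probe set was numbered between those of Ndufb8, on chromosome 19, and Slc1a2, on chromosome 2, while Glo1 lies on chromosome 17. Which copies it matches was not tested.

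Ndufa4 was lower in all 5 Tg brains than in any WT brain. It read 10.28, 10.40, 10.37, 10.20 and 10.19 in Tg replicates 1 to 5, against 11.08, 11.09, 11.13, 11.05 and 11.02 in WT replicates 1 to 5. The groups lay wide apart, with the highest Tg value well below the lowest WT value. The means were 10.29 ± 0.095 in Tg and 11.08 ± 0.040 in WT (SD, n = 5 each), a difference of -0.79 log2 units, so that Tg brains held 58.0% of the WT level. Ndufa4 was among the 8 probe sets lower in Tg past the limma adjusted p threshold of 0.05 (0.0276% of all tested). It was also among the 90 (0.311%) in which every Tg value lay below every WT value. These values chose the gene, so its place in both counts is a description and no support for the difference. With each array left out in turn, the difference stayed between -0.81 and -0.76. Outside WT replicate 2, left out after its value was seen, the cerebellar mean given above was lower in every Tg brain than in any WT brain. The olfactory bulb markers had higher means in Tg, with groups that overlapped. In WT replicate 2, with a cerebellar mean of 8.69, Ndufa4 read 11.09, against 11.02 to 11.13 on the other WT arrays. The part of either tissue in the Ndufa4 difference was not tested.

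Ndufa4 lies on chromosome 6 beside Phf14, which was also lower in Tg brain. Phf14, a PHD finger protein gene, read 8.70 ± 0.13 in Tg and 9.61 ± 0.13 in WT (SD, n = 5 each), a difference of -0.91 (limma adjusted p = 3.49e-04). Nxph1, the neurexophilin 1 gene on the other side, differed by -0.31 and did not pass over all probe sets (limma adjusted p = 0.125), although its groups did not overlap. The next gene on each side differed less, Ica1 by -0.07 (95% interval -0.18 to 0.05) and Gm6578 by -0.08 (-0.20 to 0.03). Gm6578 was dim, at 5.60 in Tg and 5.68 in WT, below the median of every array. A lower level in Tg could go unseen there. Of the other 8 subunits measured, 0 lie on chromosome 6.

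**Figure D1:**
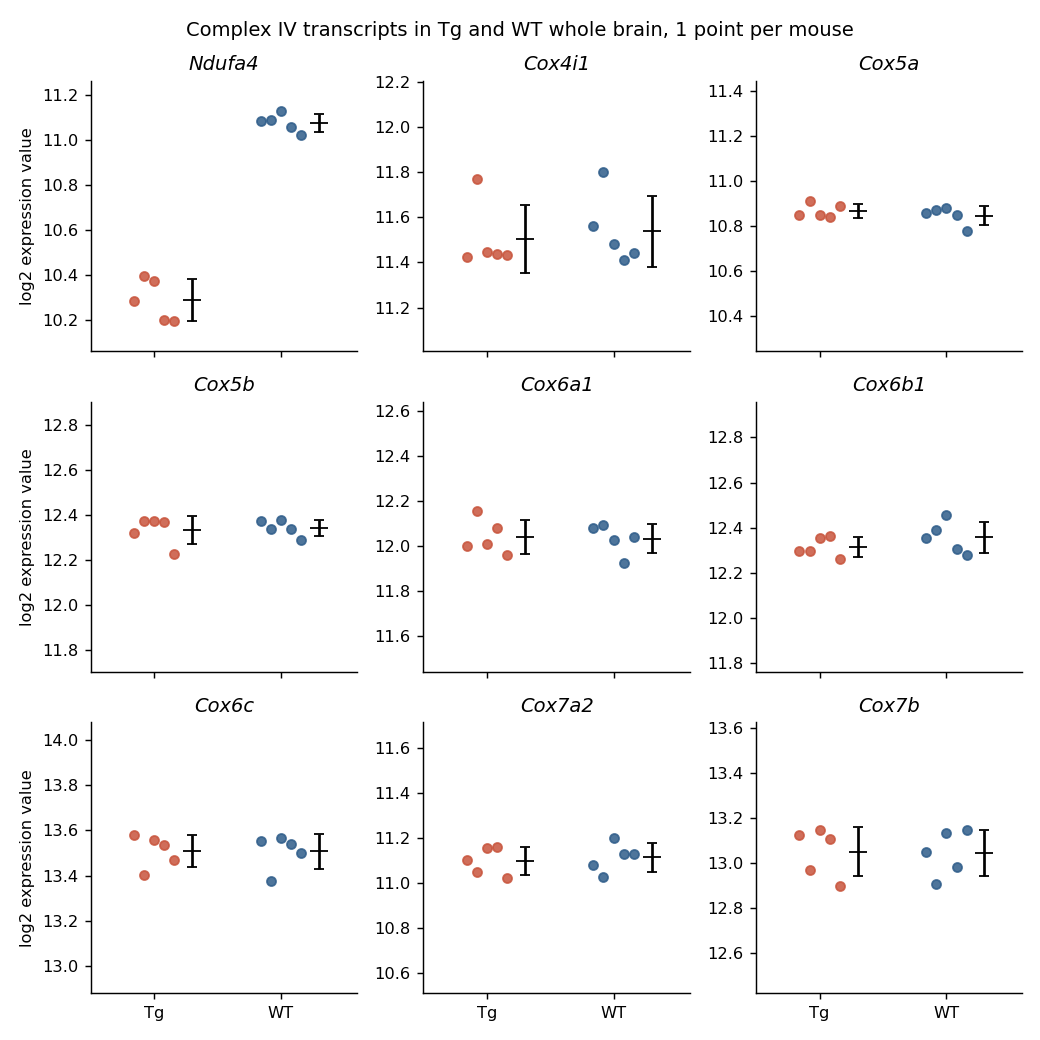
Log2 expression values (y axis, the same span in each panel) of the 9 measured complex IV genes in Tg (left in each panel) and WT brain, with 1 point per mouse and the mean ± SD (n = 5) beside the points. Ndufa4 separates the genotypes at 10.29 against 11.08, while the points of the other 8 genes overlap, and Cox4i1 has 1 high point in each group.

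The comparison then asked whether the transcripts of the other nuclear subunits followed Ndufa4. Of these, 0 of 8 reached the limma adjusted p threshold (lowest adjusted p = 0.9998), 0 had an unadjusted p under 0.05, and 0 had groups that did not overlap (0.311% of all probe sets with Tg below WT and 0.149% above). Over all probe sets 0.0345% passed the adjusted threshold, 0.0276% lower and 0.00691% higher in Tg, and 2.21% had an unadjusted p under 0.05. The 8 differences ran from -0.04 to 0.02, with 4 genes lower and 4 higher in Tg, and their median was -0.0044, beside -0.0031 over all probe sets. The 95% intervals of the 8 together covered -0.23 to 0.15, or 85.4% to 111% of the WT level, so a difference as large as that of Ndufa4 lay outside the interval of each. Smaller differences within those intervals cannot be told from 0 with 5 arrays a group.

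Among the early-assembling subunits, Cox4i1, the ubiquitous isoform of the subunit through which ATP inhibits the enzyme, read 11.43, 11.77, 11.45, 11.44 and 11.43 in Tg, against 11.56, 11.80, 11.48, 11.41 and 11.44 in WT. Replicate 2 was the highest value in both genotypes, and the groups overlapped. Its difference was -0.04 (-0.23 to 0.15, the widest interval of the 8; two-sided exact permutation p = 0.556). The sign turned when WT replicate 2 was left out, to 0.03, and the difference was -0.10 without Tg replicate 2.

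Cox5a, which joins Cox4i1 at an early step of assembly, varied least in Tg brain. It read 10.85, 10.91, 10.85, 10.84 and 10.89 in Tg, against 10.86, 10.87, 10.88, 10.85 and 10.78 in WT. The groups overlapped, with 1 low value in WT replicate 5. The difference was 0.02 (-0.06 to 0.10; two-sided exact permutation p = 0.452).

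Cox5b, the zinc-binding subunit on the matrix side, read 12.32, 12.37, 12.37, 12.37 and 12.23 in Tg, against 12.37, 12.34, 12.37, 12.34 and 12.29 in WT. The difference was -0.01 (-0.10 to 0.08), and Tg replicate 5 was the lowest array. A second probe set assigned to Cox5b differed by -0.03 (-0.12 to 0.06). Of the 20 named probe sets nearest to it in the platform's numbering, 19 belong to chromosome 13, where the annotation lists the pseudogene Cox5b-ps, while Cox5b itself lies on chromosome 1.

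Cox6a1 and Cox6b1 sit on the outer side of the complex, and Cox6b1 faces the intermembrane space near the cytochrome c site. Cox6a1 read 11.998, 12.15, 12.01, 12.08 and 11.96 in Tg, against 12.08, 12.09, 12.03, 11.93 and 12.04 in WT, a difference of 0.01 (-0.10 to 0.12). Cox6b1 read 12.30, 12.30, 12.36, 12.36 and 12.26 in Tg, against 12.35, 12.39, 12.45, 12.30 and 12.28 in WT. Cox6b1 had the lowest p of the 8, with a difference of -0.04 (-0.14 to 0.06; limma unadjusted p = 0.375, two-sided exact permutation p = 0.278), and its groups overlapped.

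The small membrane-spanning subunits also overlapped between the genotypes. Cox6c read 13.58, 13.40, 13.56, 13.54 and 13.47 in Tg, against 13.55, 13.38, 13.56, 13.54 and 13.50 in WT, a difference of 0.0015 (-0.11 to 0.11), and replicate 2 was lowest in both groups. Cox7a2, the isoform of subunit VIIa found in most tissues, read 11.10, 11.05, 11.15, 11.16 and 11.02 in Tg, against 11.08, 11.03, 11.20, 11.13 and 11.13 in WT, a difference of -0.02 (-0.12 to 0.09). Cox7b read 13.12, 12.97, 13.15, 13.11 and 12.90 in Tg, against 13.05, 12.91, 13.13, 12.98 and 13.15 in WT, a difference of 0.01 (-0.13 to 0.15). Over the 8 genes the two-sided exact permutation p ran from 0.278 to 0.992, where 5 against 5 arrays can reach 0.007937.

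The brightest probe sets of Cox6c and Cox7b were numbered among those of other chromosomes. The 20 named probe sets nearest to it in the platform's numbering were mostly on chromosome 12 for Cox6c (18 of 20) and wholly on chromosome 1 for Cox7b (20 of 20), whereas the genes lie on chromosomes 15 and X. The annotation lists the pseudogene Cox6c2 on chromosome 12. Which copies the probes match was not tested. The second probe set of each gene, numbered among those of its own chromosome, differed by 0.01 for Cox6c (-0.08 to 0.10) and by 0.03 for Cox7b (-0.15 to 0.20). The 3 probe sets assigned to both Cox7c and Gm12338 differed by -0.0061, -0.0022 and 0.0005, with intervals between -0.09 and 0.08, and are credited to neither gene.

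Set against the mean of the other 8 subunits on the same array, Ndufa4 stood at -1.80, -1.72, -1.74, -1.91 and -1.83 log2 units in Tg, against -1.03, -1.01, -1.01, -1.01 and -1.05 in WT. The distance itself depends on the brightness of each probe set, and only its change between groups can be read. It changed by -0.78 log2 units, while the mean of the 8 subunits was 12.09 ± 0.040 in Tg and 12.10 ± 0.031 in WT (SD, n = 5 each). Removing the common level of the other subunits brought the SD of Ndufa4 to 0.076 in Tg (0.095 before) and to 0.020 in WT (0.040 before).

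**Figure D2:**
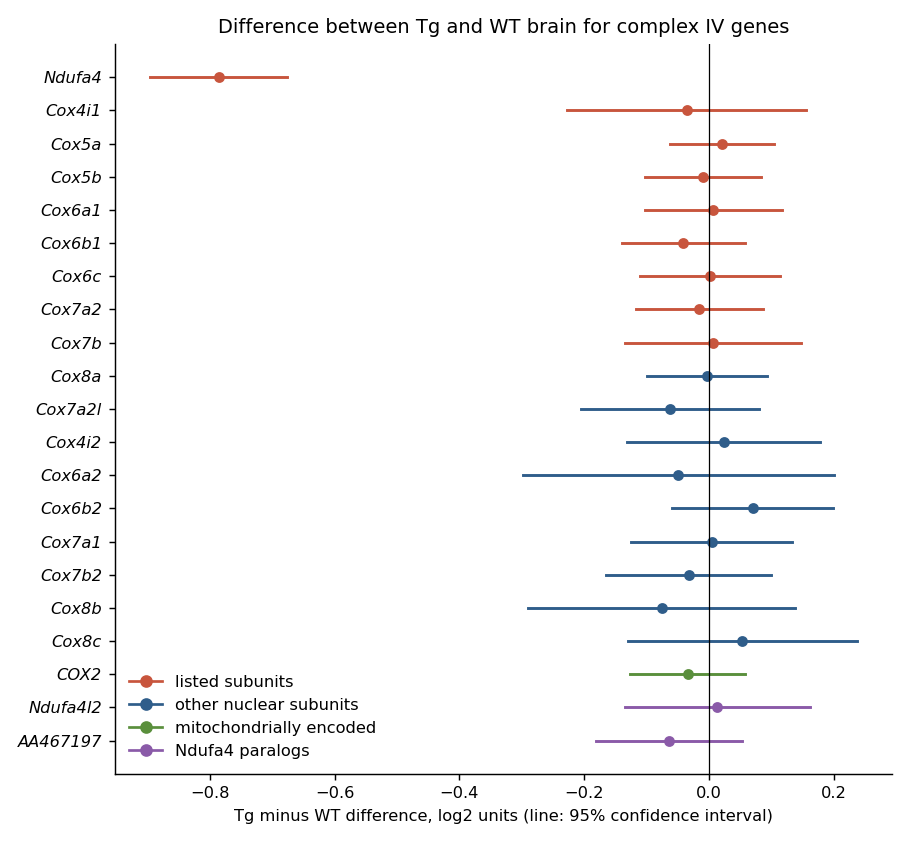
Tg minus WT difference in log2 units (x axis, points) with its 95% confidence interval (lines) for the listed subunits, the other nuclear subunits, the mitochondrially encoded COX2 and the paralogs of Ndufa4. Ndufa4 lies at -0.79, and the other 20 genes lie between -0.08 and 0.07 with intervals that include 0.

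The remaining nuclear subunits and isoforms of complex IV gave the same count. Of 9 measured, 0 passed the threshold, 5 were lower and 4 higher in Tg, and the median difference was -0.0034. Only 4 of the 9 lay above the median of every array, and a dim probe set may show little of a change. Cox8a, the isoform of subunit VIII found in most tissues, read 12.78 ± 0.033 in Tg and 12.78 ± 0.071 in WT (SD, n = 5 each), a difference of -0.0034 (-0.10 to 0.09). Cox6b2, known as a testis isoform, had the lowest p of the list and differed by 0.07 (-0.06 to 0.20). Cox6a2, Cox7a1 and Cox8b, known as heart and muscle isoforms, differed by -0.05, 0.0037 and -0.08. Cox6a2 had 1 high value of 9.53 in WT replicate 2, against 8.90 to 9.15 over Tg brains and 8.84 to 9.05 on the other WT arrays. Of the mitochondrially encoded core, a probe set assigned to COX2 differed by -0.03 (-0.13 to 0.06), while COX1 and COX3 were not analysed here. The COX2 probe set was numbered between those of Cox5b and Coa5, genes of chromosome 1. Which copies it matches was not tested.

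The paralogs of Ndufa4 were measured with dim probe sets, both below the median of every array. Ndufa4l2, which is induced by hypoxia, read 7.48 ± 0.067 in Tg and 7.46 ± 0.14 in WT (SD, n = 5 each), a difference of 0.01 (-0.13 to 0.16). AA467197, the mouse counterpart of the inflammation-induced human gene C15orf48, read 6.32 ± 0.045 in Tg and 6.38 ± 0.10 in WT (SD, n = 5 each), a difference of -0.06 (-0.18 to 0.05). Neither passed the threshold.

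The wider oxidative phosphorylation machinery was examined through further lists. Across all 10 such lists, with the isoforms, COX2 and paralogs above included, 109 of 118 genes were measured, 0 passed the adjusted threshold and 1 had an unadjusted limma p under 0.05 (0.917%, beside 2.21% of all probe sets). Differences ran from -0.10 to 0.10, with 60 lower and 49 higher in Tg and a median of -0.0047. None of the 109 intervals reached -0.79. Some probe sets of these lists, such as those of Higd1a, Ndufb11 and Ndufa11, were numbered among those of other chromosomes. Which copies they match was not tested.

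Assembly factors of complex IV (22 of 26 measured) had 13 lower and 9 higher in Tg, with a median of -0.01. Coa7, an assembly factor with the lowest p of that list, read 8.37 ± 0.062 in Tg and 8.47 ± 0.13 in WT (SD, n = 5 each), a difference of -0.10 (-0.24 to 0.04). Higd2a, the brightest of that list, differed by 0.02 (-0.07 to 0.11). Cycs, which encodes the electron donor cytochrome c, differed by -0.02 (-0.15 to 0.10), and Cyc1, the cytochrome c1 of complex III, by -0.04 (-0.14 to 0.05).

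Complex I genes, to which Ndufa4 owes its name, had 19 of 34 lower and 15 higher in Tg with a median of -0.01. Ndufa5, the complex I gene of lowest p, differed by -0.08 (-0.17 to 0.02), and Ndufc2, the brightest, by 0.03 (-0.05 to 0.11). Ndufa5 lies on chromosome 6, as do Ndufa4 and, of the complex I list, Ndufa9 and Ndufb2, which differed by -0.0078 and -0.06. The part of chromosomal position in these values was not tested. Complex II had 4 measured genes with a median of -0.0050. Its membrane anchor Sdhd differed by 0.10 (-0.01 to 0.21) and its catalytic subunit Sdha by -0.01 (-0.09 to 0.07). Complex III had 4 of 9 lower and a median of 0.0032, with its core protein Uqcrc1 at -0.05 and Uqcrb at 0.0032. Complex V, the ATP synthase, had 7 of 15 lower and a median of 0.01, with Atp5e at 0.06 and the catalytic subunit Atp5b at -0.0047.

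Among 11 regulators of mitochondrial biogenesis, 6 were lower and 5 higher in Tg, and the median was -0.0041. Gabpb1, a subunit of the ETS-family factor GABP, gave the unadjusted p under 0.05. It read 8.22, 8.21, 8.23, 8.24 and 8.22 in Tg, against 8.26, 8.28, 8.37, 8.38 and 8.33 in WT. The groups did not overlap, as in the same direction for 0.311% of all probe sets. The difference was -0.10 (-0.19 to -0.02; limma unadjusted p = 0.0217) and did not pass over all probe sets (limma adjusted p = 0.9998). Ppargc1a, the coactivator PGC-1alpha, differed by -0.0041 (-0.15 to 0.14).

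**Figure D3:**
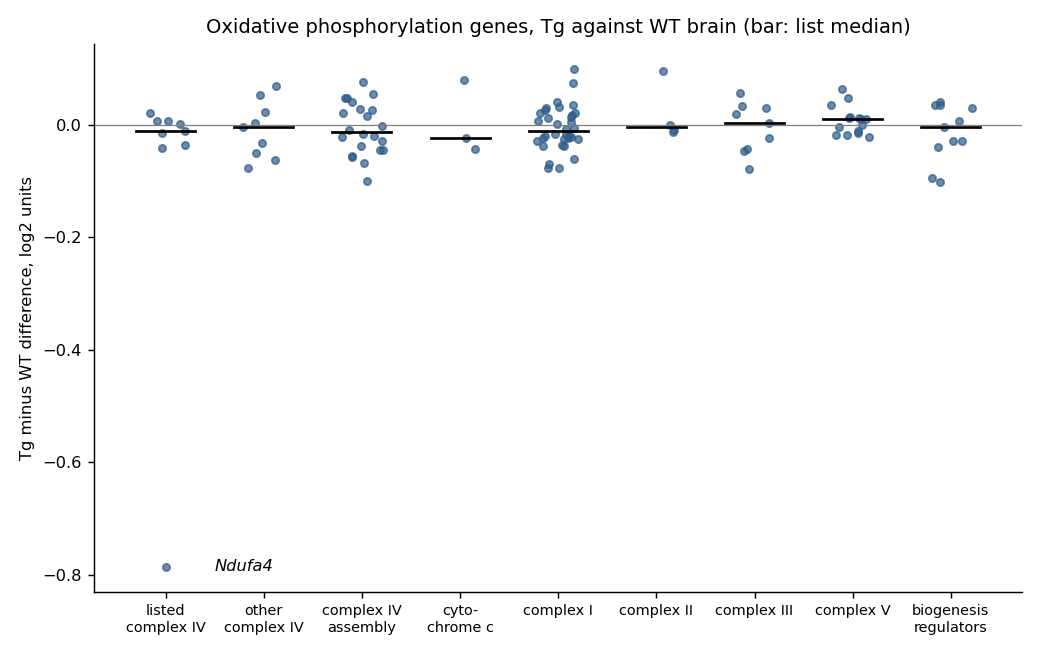
Tg minus WT difference in log2 units (y axis) of each measured gene in 9 lists of oxidative phosphorylation genes (x axis, 1 point per gene, black bar at the list median). Ndufa4 at -0.79 lies apart, and all other points fall between -0.10 and 0.10.

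How tightly the subunits covaried was examined on deviations from the genotype mean, since Ndufa4 separates the genotypes. Over the 10 arrays the 28 pairs of the other 8 subunits had a median Pearson r of 0.25, from -0.82 to 0.84, with 19 positive and 9 negative. Without Tg replicate 5 this median was 0.134. The 8 pairs with Ndufa4 had a median of 0.395, from -0.11 to 0.67, with 7 positive, and a median of 0.235 without Tg replicate 5. Adding Ndufa4 to the other subunits brought the median over all 36 pairs to 0.281. For comparison, all pairs among the 1904 genes at least as bright as the dimmest listed gene had a median of 0.085, with 5% below -0.74 and 5% above 0.81. Arrays share tissue makeup and RNA quality across genes, so these r are descriptions of 10 arrays.

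The 3 highest and 3 lowest pairs of the other subunits were taken for closer description. Cox7a2 and Cox7b had the highest r (r = 0.84, rho = 0.79; exact permutation within genotype, p = 0.00917 and 0.0162, adjusted over 36 pairs 0.165 and 0.156), and r was 0.67 without Tg replicate 5 and WT replicate 2, the arrays farthest from the median of Cox7a2. Cox4i1 and Cox6a1 gave r = 0.78 and rho = 0.81 (exact permutation p = 0.00257 and 0.00854, adjusted 0.0925 and 0.156), and r was 0.66 without replicate 2 of each genotype. Cox6c and Cox7a2 gave r = 0.74 and rho = 0.62 (exact permutation p = 0.0305 and 0.0779, adjusted 0.183 and 0.392), and r was 0.56 without replicate 2 of each genotype. No pair passed after adjustment over the 36 pairs. All r with Cox6c and Cox7b here and below rest on their brightest probe sets, which were numbered among those of other chromosomes. No r with the second probe set of either gene is given.

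The most negative pair was Cox4i1 and Cox6c, with r = -0.82 and rho = -0.31 (exact permutation p = 0.0294 and 0.412, adjusted 0.183 and 0.62). Without replicate 2 of each genotype its r was 0.24, so the relation rests on those arrays. Cox5a and Cox7b gave r = -0.65 and rho = -0.59 (exact permutation p = 0.0648 and 0.0999, adjusted 0.333 and 0.392), and r was -0.55 without Tg replicate 2 and WT replicate 5. Cox4i1 and Cox7a2 gave r = -0.61 and rho = -0.31 (exact permutation p = 0.104 and 0.424, adjusted 0.418 and 0.62), and r was -0.17 without replicate 2 of each genotype.

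On these arrays Cox4i1 read 11.77 in Tg replicate 2 and 11.80 in WT replicate 2, against 11.41 to 11.56 on the other 8 arrays. Cox6c read 13.40 and 13.38, against 13.47 to 13.58, and Cox7b 12.97 and 12.91, against 12.90 to 13.15. Thus Cox4i1 was high and Cox6c low on the same pair of arrays on which the pituitary markers were high, and the part of pituitary tissue in these values was not tested. Without both arrays the median r was 0.428 over the 28 pairs, with 24 positive, and 0.498 over the 8 pairs with Ndufa4, with 8 positive, beside 0.089 over all pairs of the 1904 genes. The difference between genotypes was -0.81 for Ndufa4, -0.04 for Cox4i1 and -0.0048 for Cox6c without both arrays, and again 0 of 8 other subunits passed.

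**Figure D4:**
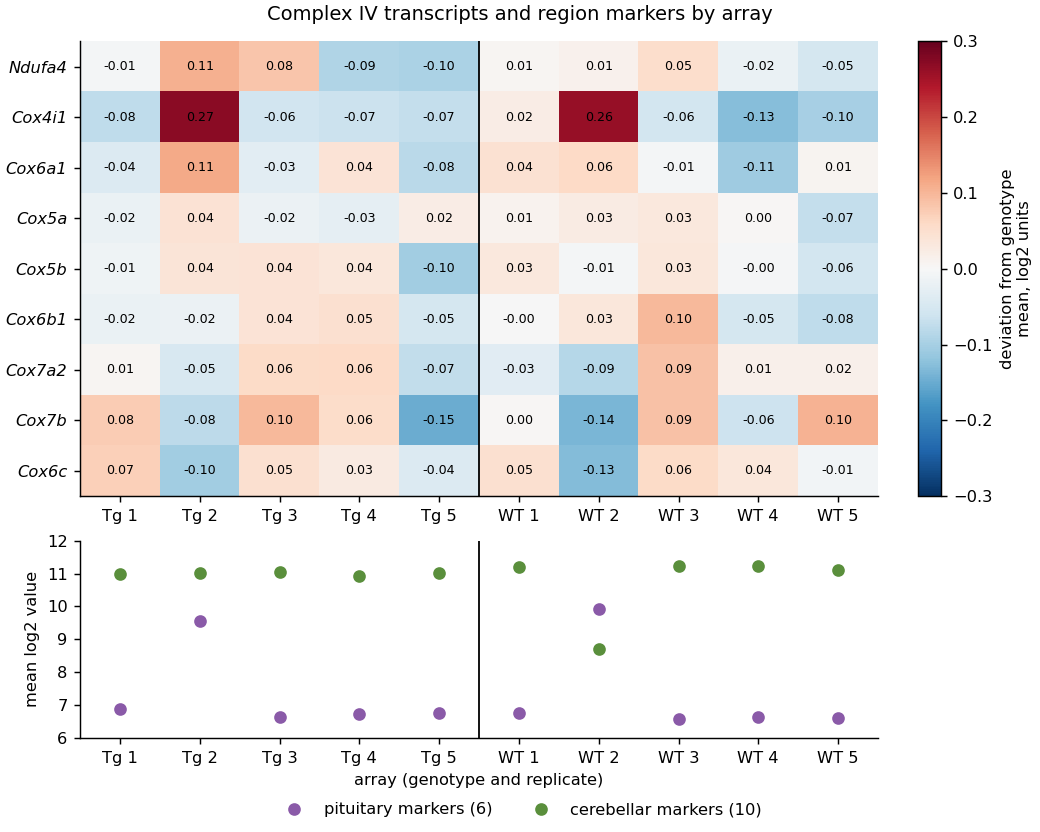
Deviation of each complex IV transcript from its genotype mean in log2 units (upper panel, rows are genes, columns are Tg then WT arrays), and the mean log2 value of 6 pituitary and 10 cerebellar markers on the same arrays (lower panel). Cox4i1 deviates by 0.27 in Tg 2 and 0.26 in WT 2, the arrays on which the pituitary mean is 9.54 and 9.92.

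Within genotypes and over all 10 arrays, the highest Pearson r of Ndufa4 with another subunit was that with Cox5b (r = 0.67, rho = 0.67; exact permutation p = 0.0756 and 0.111, adjusted 0.340 and 0.392), and r was 0.43 without Tg replicates 2 and 5. The order depended on the measure and the arrays. By rank the highest value was that with Cox4i1 (rho = 0.70, r = 0.51; exact permutation p = 0.0173 and 0.138, adjusted 0.156 and 0.437), and r was 0.21 without Tg replicates 2 and 5. Without replicate 2 of each genotype the highest r was that with Cox6c, at 0.70, against 0.64 with Cox5b, while over 10 arrays the r with Cox6c was -0.11. Among the 1904 genes, Cox5b ranked 144 by likeness to Ndufa4 on this measure. The closest 5 were Fads1 (r = 0.93), a fatty acid desaturase, Copg1 (0.93), a coat protein of transport vesicles, Ttyh2 (0.92), Pink1 (0.91), a mitochondrial kinase, and Syt11 (0.91), a synaptotagmin. These genes differed between the genotypes by -0.06 to 0.01. Over the uncentred values, in which the genotypes form separate clusters, the closest were Pink1 (r = 0.82), Sptbn1 (0.80), Spock1 (0.78), Hnrnpul2 (0.77) and Impact (0.76), and the most opposite was Glo1 (-0.97). The other 8 subunits then had r from -0.23 for Cox5a to 0.42 for Cox6b1. An uncentred r with Ndufa4 partly restates the gap between genotypes by which it was chosen. That with Glo1, the transgene, was settled in advance and shows no further relation of the 2 genes. Phf14 and the other chromosome 6 neighbours were dimmer than Ndufa4 and were not among the genes searched.

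**Figure D5:**
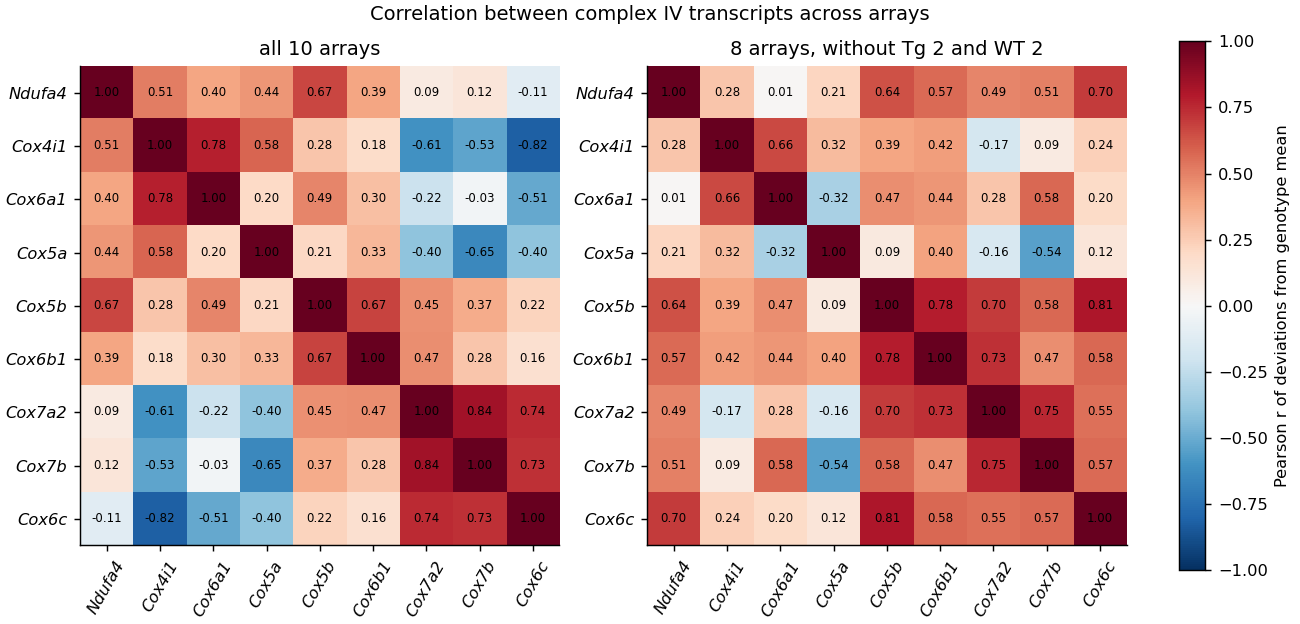
Pearson r between complex IV transcripts, on deviations from the genotype mean, over all 10 arrays (left) and over 8 arrays without replicate 2 of each genotype (right), with genes ordered after the values were seen. The r of Cox4i1 with Cox6c is -0.82 on the left and 0.24 on the right, and the 8 values of Ndufa4 are all above 0 on the right.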

How the data were processed

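Total RNA from the whole brain of each mouse was isolated with TRIzol, purified on RNeasy columns and labelled with biotin, per the labels' protocols. The submitters' processing notes name Affymetrix Expression Console 1.1.2 for the arrays. How it corrected background and normalized is not stated in the labels or headers. The table deposited by the authors holds log2 values (3.28 to 14.7 over 35556 rows), taken here without further normalization. Control rows (6612, 18.6%) were left out and 28944 probe sets tested. Of these, 21789 had 1 gene in the platform annotation, 1621 had several and 5534 were unnamed here; symbols were updated through Entrez identifiers to assembly GRCm38.p6.

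The genotype difference of each probe set was fitted in limma 3.58.1 under R 4.3.3 (lmFit, eBayes, no covariate), with Benjamini-Hochberg adjustment over all 28944 at a threshold of 0.05. Intervals are 95%. Single genes were also tested by exact permutation over arrays, and pair correlations by exact permutation within genotype. On simulated data for this comparison, with 28944 probe sets, 91% of 100 probe sets changed by 0.5 log2 units were recovered and 99% of 100 changed by 1. The simulation gave 203 calls, 13 of them false, against 10 calls in the data, so its adjusted threshold was easier to pass. Its noise was independent between probe sets, so arrays that stand apart were not imitated. Recovery in the data may be lower.

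The members and lists were chosen with earlier results of these data known. The text names all members, the lowest-p and brightest gene of each list, the paralogs and mitochondrially encoded subunits, both neighbours on each side of Ndufa4, the 5 genes most like it, the 3 highest and 3 lowest pairs, and Glo1. The isoforms Cox6a2, Cox7a1 and Cox8b, the markers Gh, Eomes, Cldn5, Alas2 and Slc4a1, and in the correlations those of Ndufa4 with Cox4i1 and Cox6c, were named after their values were seen. So were the cerebellar markers named singly and the comparison of their mean without WT replicate 2. Genes named for their chromosome or probe set number were also added later. Alternatives covered normalization, dim probe sets, variance models, array weights, the replicate number, the serial number in the labels, the summary per gene and each array left out. Same-numbered arrays of the 2 genotypes had correlations of deviations of 0.007, 0.33, 0.453, -0.472 and 0.097. The same-numbered WT array correlated best for Tg replicates 2 and 3, and another WT array for Tg replicates 1, 4 and 5. These values do not settle whether the numbers pair the arrays. Arrays give no read depth; their number limits the precision.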

Additional observations from a re-analysis of the deposited data

Results flagged for a closer look

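Among 33 named genes, 66 groups of 5 arrays were examined for 1 array far from the rest by Dixon's criterion, which chance meets in about 1 of 20 groups, and 5 groups met it. Cox4i1 read 11.77 in Tg replicate 2, against 11.43 to 11.45 on the other Tg arrays; WT replicate 2 was also highest among WT arrays, at 11.80. Cox5a read 10.78 in WT replicate 5, against 10.85 to 10.88 on the other WT arrays. Cycs, cytochrome c, read 12.53 in WT replicate 2, against 12.73 to 12.78. Uqcrb, a complex III subunit, read 12.08 in WT replicate 2, against 12.46 to 12.56, and Tg replicate 2 was lowest among Tg arrays at 12.23. Sdha, the catalytic subunit of complex II, read 11.99 in Tg replicate 4, against 12.04 to 12.05. Replicate 2 of both genotypes carried pituitary transcripts, and WT replicate 2 also had low cerebellar and high red cell markers. The part of these tissue differences in the flagged values was not tested.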

How the results depend on the processing

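Under all 20 alternatives to the main comparison, 19 of them planned and 1 added after seeing the data, 0 of the 8 other subunits passed the threshold, and their median difference lay between -0.02 and 0.01. The Ndufa4 difference lay between -0.81 and -0.76. All probe sets past the threshold numbered 9 to 11, against 10 as reported. With the replicate number as a block the count was 11 and the median of the 8 subunits was -0.0044. Of them 0 passed, so the block changed no call among them. Tg replicates 1, 4 and 5 correlated better with other WT numbers, and Tg replicates 2 and 3 best with their own. The differences of the 8 subunits are close to 0, and their signs turned in up to 8 of 20 alternatives (Cox6c). The median r of the 28 pairs without Ndufa4 (0.25) was 0.329 with array medians removed, 0.428 without replicate 2 of each genotype, which was added after seeing the data, and 0.134 to 0.312 with single arrays left out; it was lowest without Tg replicate 5. The median r of the 8 pairs with Ndufa4 (0.395) was 0.467 by Spearman's rho, 0.498 without replicate 2 of each genotype and 0.235 to 0.430 with single arrays left out, lowest without Tg replicate 5. The cause of these moves was not tested. Background signal is not analysed here, because scanner files were not used.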
